A study of Homo sapiens with 12 samples.

Results

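Of the 31654 named gene rows in an RNA sequencing table of human glioblastoma lines, 9 belong to the plasminogen system and the tissue factor pathway and are described here: F3, TFPI, TFPI2, THBD, PLAU, PLAT, PLAUR, SERPINE2 and SERPINB2. They were taken by gene symbol, with earlier results of these data in view. Their changes, with the adjusted p-values, are therefore a description and not independent evidence. The 12 libraries came from 4 groups of 3. U251TR and U87TR are temozolomide resistant lines made from U251MG and U87MG by repeated exposure to rising amounts of this alkylating drug, and U251MG and U87MG are their parental lines. All were grown in serum-supplemented DMEM. The labels do not say whether a resistant line is 1 clone, whether drug was present at harvest, or whether a line's libraries were grown as separate cultures. The p-values thus rest on the spread between libraries, which may be technical. With 1 resistant line per parent, resistance and any other change acquired during its making cannot be told apart. In bulk RNA, fewer cells expressing a gene and less RNA per cell cannot be told apart either. Values are FPKM, fragments scaled by transcript length and library size, a level that can be compared between genes. The table holds no counts, so the depth is unknown.

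Tissue factor, the product of F3, is the cell surface receptor that starts coagulation by binding factor VII. TFPI, a Kunitz-type inhibitor, blocks that complex, TFPI2 codes for a related inhibitor that acts on plasmin, and THBD codes for thrombomodulin, which turns thrombin towards activation of protein C. The urokinase (PLAU) and tissue-type (PLAT) activators cut plasminogen into plasmin, a protease of fibrin and matrix, and PLAUR codes for the receptor that holds urokinase at the cell surface. SERPINE2 (protease nexin-1, an inhibitor of thrombin and of the activators) and SERPINB2 (PAI-2, an inhibitor of both activators) are serpins. In glioblastoma these genes are studied for invasion and for thrombosis around the tumour.

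The libraries had 13135 to 14122 genes at 1 FPKM or more, and mitochondrial transcripts made up 7.26% to 8.77% of the summed FPKM. U251MG replicate 2 and U87MG replicate 3 stood apart from the others of their lines, with rank correlations across genes of 0.977 to 0.978 and 0.983 to 0.987, and both differed from the others in the genes described here. Of the glioma and astrocyte markers, VIM, CD44, EGFR, NES and SLC1A3 were at 1 FPKM or more in every library. AQP4 was listed at 0 in all U251MG, U87TR and U87MG libraries, and SOX2 and S100B in all U87MG libraries. F3, TFPI and THBD are also genes of endothelium and F3, THBD, PLAUR and SERPINB2 of monocytes, so markers of those cells were summed. The 9 endothelial markers in the table summed to 19.9 to 20.3 FPKM in U251TR, 11.1 to 11.7 in U251MG, 2.8 to 4.07 in U87TR and 3.29 to 3.7 in U87MG. The 8 monocyte and macrophage markers summed to 2.1 to 2.71 FPKM in U251TR, 1.4 to 1.48 in U251MG, 15.2 to 18.3 in U87TR and 12.4 to 17.8 in U87MG. CSF1R made up most of the U87 sums, and PTPRC, which marks all leukocytes, averaged at most 0.0367 FPKM in any group. The 10 glioma and astrocyte markers summed to 1871 to 1966 FPKM in U251TR, 2310 to 3647 in U251MG, 4422 to 4774 in U87TR and 5570 to 6577 in U87MG. VIM, which averaged 4051 FPKM in U87TR and 4917 FPKM in U87MG, made up most of the U87 sums. In U87MG against U251MG, 2 of the 9 tested were higher and 6 were lower. Of the 9 tested, 3 rose and 5 fell in U251TR, led by GFAP (log2 fold change 4.09), SLC1A3 (-2.37), NES (-2.16) and VIM (-0.99), and 2 rose and 4 fell in U87TR, led by NES (1.60), CD44 (-1.04), SLC1A3 (-0.91) and EGFR (-0.86). Of 4 tested endothelial markers 2 rose in U251TR, CDH5 among them (0.68), and in U87TR 1 rose and 1 fell. Of 2 tested monocyte markers 1 rose and 1 fell in U251TR and neither passed in U87TR. ERG, the endothelial marker that rose in U87TR, passed the filter only through the U87TR libraries. LAPTM5, the monocyte marker that rose in U251TR, passed it only through the U251TR libraries. Both thus had to be higher there. The part of these markers in the results was not tested.

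The U251 and U87 lines differed in which members they expressed. TFPI2, SERPINB2 and THBD were found in the U87 lines, and each was listed at 0.06 FPKM or less in the 6 U251 libraries. TFPI2 was the most abundant member anywhere, at 1059 ± 149 FPKM in U87MG (SD, n = 3), while THBD reached 2.35 FPKM in its highest library. PLAT had its highest level in U251MG: it averaged 13.6 ± 0.67 FPKM in U251TR and 56.2 ± 2.92 in U251MG, and 7.28 ± 0.78 FPKM in U87TR and 5.97 ± 1.19 in U87MG (SD, n = 3 each). Its U87TR and U87MG libraries overlapped. The levels of PLAU, PLAUR, SERPINE2 and TFPI were at 20.53 FPKM or more in every library. By mean level F3 ran in the order U251MG, U87MG, U87TR, U251TR, and neighbours in that order overlapped except the last pair. TFPI and PLAUR were both highest in U87MG and then in U87TR, with no overlap between any neighbours. Urokinase was the more abundant activator in nearly every library: only in U251MG replicate 2 did PLAT (59.4 FPKM) exceed PLAU (51.6 FPKM).

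**Figure D1:**
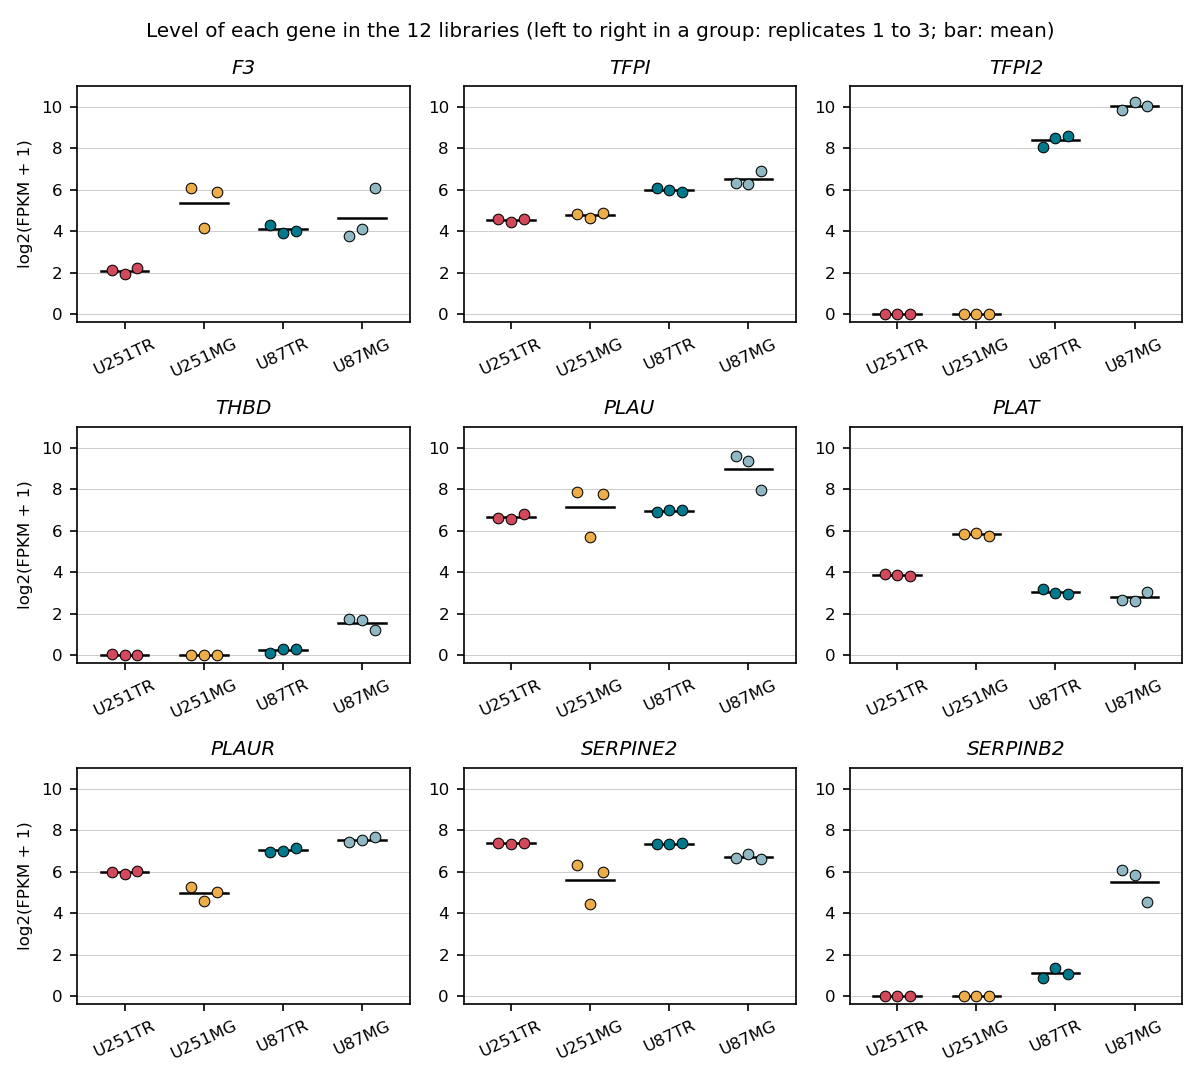
Levels of the 9 genes as log2(FPKM + 1) in each of the 12 libraries, grouped by line; points run from replicate 1 to 3 and the bar is the group mean. TFPI2, THBD and SERPINB2 lie at or near 0 in all U251 libraries, and the parental points of F3, PLAU and SERPINE2 spread more than the resistant ones.

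The 250 bases before the start of F3, TFPI2, PLAUR and SERPINB2 are shown because these are the members whose promoter window holds the AP-1 motif TGANTCA, the site of JUN and FOS family proteins. Sequences are from RefSeq, build GRCh38.p14, written 5′ to 3′ on the strand of the gene, with capitals marking matches on either strand to TGANTCA, to the Sp1 GC box GGGCGG, to the TATA box TATAAA and to the NF-kB motif. No motif overlaps another here.
F3, chr1:94541760-94542009, minus strand: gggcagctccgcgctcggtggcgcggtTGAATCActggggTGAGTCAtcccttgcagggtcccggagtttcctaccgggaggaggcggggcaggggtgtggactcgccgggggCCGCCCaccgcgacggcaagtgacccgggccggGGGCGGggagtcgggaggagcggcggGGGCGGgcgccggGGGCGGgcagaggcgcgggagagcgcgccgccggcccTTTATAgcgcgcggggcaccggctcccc
TFPI2, chr7:93890754-93891003, minus strand: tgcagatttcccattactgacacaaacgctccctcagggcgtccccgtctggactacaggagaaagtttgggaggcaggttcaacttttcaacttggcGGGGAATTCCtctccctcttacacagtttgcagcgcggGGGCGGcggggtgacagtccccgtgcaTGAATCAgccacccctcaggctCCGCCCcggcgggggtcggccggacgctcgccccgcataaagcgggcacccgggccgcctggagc
PLAUR, chr19:43670170-43670419, minus strand: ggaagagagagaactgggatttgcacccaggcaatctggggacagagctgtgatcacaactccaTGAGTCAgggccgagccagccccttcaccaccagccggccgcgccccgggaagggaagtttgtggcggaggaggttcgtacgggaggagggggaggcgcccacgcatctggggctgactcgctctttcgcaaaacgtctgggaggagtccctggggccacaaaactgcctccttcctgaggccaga
SERPINB2, chr18:63887455-63887704, plus strand: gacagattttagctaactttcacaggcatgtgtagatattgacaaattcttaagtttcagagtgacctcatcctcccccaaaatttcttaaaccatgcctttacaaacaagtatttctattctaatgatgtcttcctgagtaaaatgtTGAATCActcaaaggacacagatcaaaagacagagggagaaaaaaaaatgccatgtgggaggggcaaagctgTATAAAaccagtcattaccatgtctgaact
Of the 9 members, 7 had an entry, with windows of 250 bases before to 50 after the start, and 4 of these held TGANTCA, against 7.71% of the 35116 windows in the table. A match describes the letters and not binding. F3 held 2 AP-1 matches, at -223 and -210 from the start, 4 GC boxes, which 45% of windows hold at least once, and a TATA box on the other strand at -28. TFPI2 held 1 AP-1 match at -87, 2 GC boxes and 1 NF-kB match, which 11.3% of windows hold. SERPINB2 held 1 AP-1 match at -102 and a TATA box at -30, which 11.5% of windows hold. Neither window of PLAU or SERPINE2, which have 2 each, held TGANTCA. The windows differed in CpG dinucleotides, with 38 in F3, 26 in TFPI2 and 1 in SERPINB2, against a median of 14.

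In U251TR the tissue factor gene and the tissue-type activator gene fell, while the urokinase receptor and protease nexin-1 genes rose. Of the 9 members, 4 passed the test in this comparison (limma, Benjamini-Hochberg adjusted p under 0.05 over all 15449 genes tested), against 53.2% of all genes: 2 were higher, against 33.6%, and 2 were lower, against 19.6%. This split of all genes depends on the scaling: of the genes called, 63.2% were higher here, 50.9% with median-of-ratios factors, 49.3% with quantile normalization and 72.1% with rescaling to TPM, while 2 members higher and 2 lower were called under each. The libraries of U251TR and U251MG did not overlap in 5 members, against 58.9% of all genes. The median log2 fold change of the members was 0, against 0.10 over all genes tested. That median is the value of SERPINB2. TFPI2, THBD and SERPINB2 were at or near 0 in all U251 libraries and could hardly pass here, but they count among the 9 members.

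F3 stood at 3.45, 2.84 and 3.65 FPKM in U251TR, against 67.67, 16.69 and 57.95 FPKM in U251MG. All U251TR libraries were below all U251MG libraries, and U251MG replicate 2 was the lowest of its line. The log2 fold change was -3.27 (SE 0.58, adjusted p = 0.000613), and -3.89 without U251MG replicate 2. TFPI, the inhibitor of the tissue factor complex, was at 22.88, 21.12 and 23.27 FPKM in U251TR, against 27.3, 23.92 and 28.5 FPKM in U251MG. The groups did not overlap, but the log2 fold change of -0.23 (SE 0.14, adjusted p = 0.193) did not pass.

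PLAT was at 14.25, 13.75 and 12.92 FPKM in U251TR, against 55.7, 59.37 and 53.61 FPKM in U251MG. The U251MG libraries lay close together, replicate 2 included, and the log2 fold change was -1.97 (SE 0.12, adjusted p = 7e-08). PLAU was at 95.71, 93.35 and 112.48 FPKM in U251TR, against 231.6, 51.64 and 220.16 FPKM in U251MG. The U251TR libraries lay between U251MG replicate 2 and the other two, so the groups overlapped. The log2 fold change was -0.46 (SE 0.53, adjusted p = 0.493) and did not pass. Without U251MG replicate 2 it was -1.16 (SE 0.37, adjusted p = 0.0224), which did.

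PLAUR was at 62.17, 57.44 and 65.23 FPKM in U251TR, against 36.97, 23.39 and 32.01 FPKM in U251MG. Every U251TR library was above every U251MG library, and the log2 fold change came to 1.00 (SE 0.14, adjusted p = 6.84e-05). SERPINE2 was at 165.85, 158.56 and 166.48 FPKM in U251TR, against 79.68, 20.53 and 62.02 FPKM in U251MG. The groups did not overlap. Its rise was 1.78 log2 units (SE 0.35, adjusted p = 0.00113), and 1.21 without U251MG replicate 2. SERPINB2 was listed at 0 in all 6 of these libraries. TFPI2 was at 0.02 FPKM in U251TR replicate 2 and THBD at 0.06 FPKM in U251TR replicate 1, and both were listed at 0 in the other 5 libraries, so no fold is given for these 3 genes.

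**Figure D2:**
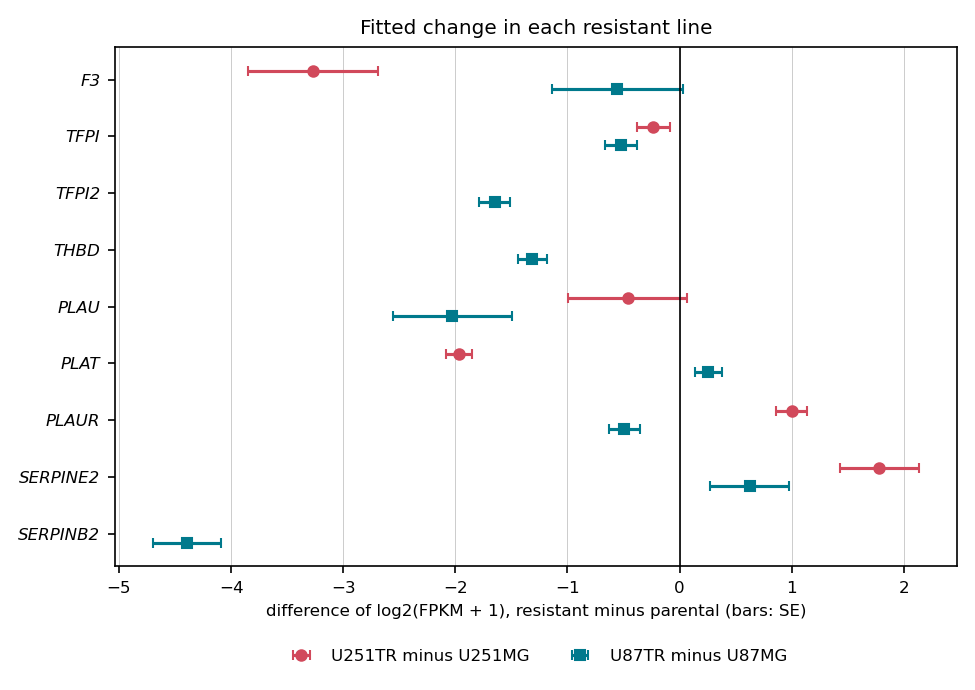
Fitted difference of log2(FPKM + 1) between each resistant line and its parent, with standard errors; circles are U251TR minus U251MG and squares are U87TR minus U87MG. No U251 point is drawn for TFPI2, THBD and SERPINB2, which were under 0.1 FPKM on average in both U251 groups; F3 and PLAT lie far to the left in U251TR, and PLAU and SERPINB2 in U87TR.

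In U87TR the genes of urokinase, its receptor, thrombomodulin and 3 inhibitors, SERPINB2, TFPI2 and TFPI, fell. No member passed as higher, though every U87TR library was above every U87MG library for SERPINE2. Of the 9 members, 6 passed, all lower, against 27.8% of all genes in either direction and 17.2% lower. Of all genes called, 38.1% were higher, and 48.8% with quantile normalization, under which 5 members passed, all lower. The libraries of U87TR and U87MG did not overlap in 7 members, against 46.6% of all genes. The median log2 fold change was -0.55, against -0.05 over all genes tested. THBD passed the filter of 1 FPKM in at least 3 libraries only through the 3 U87MG libraries, where it was high, so it had to differ here. SERPINB2 passed it through 5 U87 libraries: all of U87MG, and replicates 2 and 3 of U87TR (1.59 and 1.13 FPKM). It too would not have been tested without U87MG libraries, where it was high. TFPI2 passed the filter through 6 U87 libraries, and the other members were at 1 FPKM or more in all 12 libraries. U87TR libraries carry codes of a number block that no other library shares, so in the U87 comparison code block and resistance cannot be told apart. The code block also enters the difference between the changes and any comparison of U87TR with U251TR.

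SERPINB2 had the largest fall of the members. It was at 0.85, 1.59 and 1.13 FPKM in U87TR, against 67.97, 57.35 and 22.42 FPKM in U87MG. The U87TR mean was 0.0242 of the U87MG mean. On the log2(FPKM + 1) scale, which understates the change of a gene this low, the fold change was -4.39 (SE 0.30, adjusted p = 6.71e-07). SERPINE2, the other serpin, was at 160.77, 161.07 and 164.06 FPKM in U87TR, against 100.48, 115.4 and 98.59 FPKM in U87MG. All U87TR libraries were higher, but the log2 fold change of 0.63 (SE 0.35, adjusted p = 0.215) did not pass in the fit of all 12 libraries, whose spread for this gene includes U251MG replicate 2. In a fit of the 6 U87 libraries alone the SE was 0.07 and the adjusted p 0.0013.

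TFPI2 was at 265.85, 362.43 and 388.89 FPKM in U87TR, against 908.92, 1206.12 and 1063.27 FPKM in U87MG. Its highest U87TR library was far below its lowest U87MG library, and the log2 fold change came to -1.65 (SE 0.13, adjusted p = 2.7e-06). TFPI was at 67.56, 62.84 and 58.17 FPKM in U87TR, against 80.06, 77.55 and 119.84 FPKM in U87MG. U87MG replicate 3 was its highest library. The log2 fold change of -0.52 (SE 0.14, adjusted p = 0.0174) was -0.32 without that library, and the call was lost without U87TR replicate 3 (adjusted p = 0.0667). THBD was at 0.09, 0.23 and 0.24 FPKM in U87TR, against 2.35, 2.23 and 1.36 FPKM in U87MG. It was low in both groups, and the groups did not overlap. The fitted log2 fold change came to -1.31 (SE 0.13, adjusted p = 1.14e-05).

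PLAU was at 119.55, 125.56 and 125.87 FPKM in U87TR, against 785.85, 654.98 and 252.37 FPKM in U87MG. The U87TR libraries were nearly alike, while U87MG replicate 3 was well below the other two U87MG libraries. The log2 fold change was -2.03 (SE 0.53, adjusted p = 0.0153). It was -2.53 without U87MG replicate 3, and the call was lost without U87MG replicate 1 (adjusted p = 0.0557) or 2 (adjusted p = 0.0524). PLAUR was at 123.2, 129.05 and 141.65 FPKM in U87TR, against 169.92, 184.95 and 200.65 FPKM in U87MG. The groups did not overlap, but the log2 fold change of -0.49 (SE 0.14, adjusted p = 0.0188) no longer passed without U87TR replicate 1 or 2, or without U87MG replicate 2 or 3 (adjusted p from 0.0551 to 0.0674).

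F3 and PLAT did not pass in U87TR. F3 was at 18.94, 14.13 and 15.26 FPKM in U87TR, against 12.45, 16.07 and 66.7 FPKM in U87MG. The parental mean rested on U87MG replicate 3: the log2 fold change was -0.55 (SE 0.58, adjusted p = 0.53) with it and 0.17 (SE 0.45, adjusted p = 0.837) without it. PLAT was at 8.15, 7.04 and 6.64 FPKM in U87TR, against 5.43, 5.15 and 7.34 FPKM in U87MG. Its log2 fold change of 0.26 (SE 0.12, adjusted p = 0.132) passed only without U87MG replicate 3, at 0.39 (adjusted p = 0.0124).

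The test of the difference between the changes, U87 minus U251, passed for 6 of the 9 members, against 47.6% of all genes: 2 were positive, against 15.4%, and 4 negative, against 32.1%. Of all genes called, 32.4% were positive, 46% with median-of-ratios factors and 48.6% with quantile normalization, and 2 members positive and 4 negative were called under both. PLAUR was the member called in opposite directions, with a difference of -1.49 on the log2 scale (SE 0.19, adjusted p = 6.64e-05), though its U87TR call was lost without some single libraries, as given above. PLAT had a difference of 2.22 (SE 0.17, adjusted p = 8.94e-07) and F3 of 2.72 (SE 0.82, adjusted p = 0.0182). For TFPI2, THBD and SERPINB2 the difference restates the U87 change, since these genes were at or near 0 in both U251 groups. THBD was tested only through its 3 U87MG libraries, and SERPINB2 would not have been tested without its U87MG libraries. For TFPI (-0.29, SE 0.20, adjusted p = 0.262), PLAU (-1.56, SE 0.75, adjusted p = 0.109) and SERPINE2 (-1.16, SE 0.50, adjusted p = 0.0755) the difference did not pass. PLAU passed without U87MG replicate 3 (-2.06) and SERPINE2 without U251MG replicate 1 (-1.53) or 2 (-0.58). Without U251MG replicate 2 and U87MG replicate 3 together the difference was -1.36 (adjusted p = 1.5e-05) for PLAU and -0.62 (adjusted p = 0.00304) for SERPINE2.

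The 2 parental libraries that stood apart did so in these genes, each in its own way. In U251MG replicate 2, PLAU was 0.229, F3 0.266 and SERPINE2 0.290 of the mean of the other two U251MG libraries. PLAT and TFPI were close to the others there, at 1.09 and 0.857 of their mean. In U87MG replicate 3, F3 was 4.68 times the mean of the other two, while PLAU was 0.350 and SERPINB2 0.358 of it. F3 and PLAU were thus both low in the first library, but in the second F3 was high and PLAU low. In each of the 2 libraries 3 of the 9 members differed by more than 2-fold from the mean of the others on the log2(FPKM + 1) scale, against 3.26% of all tested genes in U251MG replicate 2 and 1.73% in U87MG replicate 3. U251MG replicate 1 also had 3 such members, against 0.861% of all genes, and U87MG replicate 1 had 1, against 0.841%. Each of these 2 libraries was set against a mean that holds the library standing apart. No member differed so in U251MG replicate 3, U87MG replicate 2 or the 6 resistant libraries. In these, 0.485% to 0.796% of all genes did. The labels give no reason for the difference, and its part in the results was not tested beyond leaving these libraries out.

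**Figure D3:**
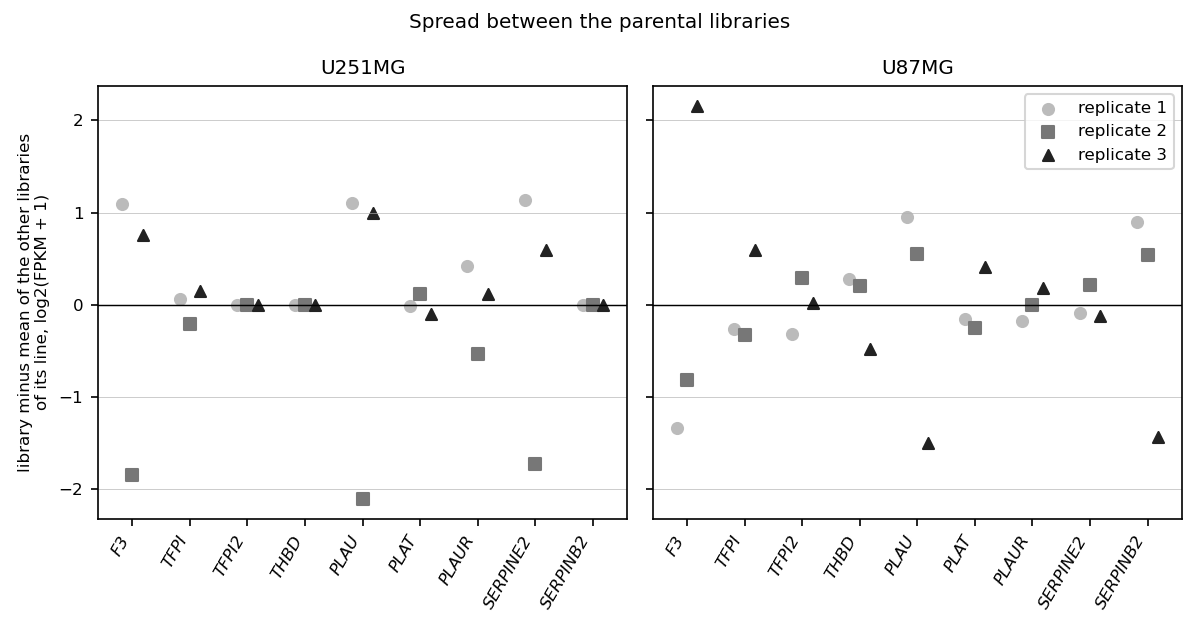
Difference of each parental library from the mean of the other two of its line, on the log2(FPKM + 1) scale, for the 9 members; circles, squares and triangles are replicates 1, 2 and 3. U251MG replicate 2 is low for F3, PLAU and SERPINE2, and U87MG replicate 3 is high for F3 and low for PLAU and SERPINB2.

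Between the parents, 8 of the 9 members passed in U87MG against U251MG, 7 higher and 1 lower, against 72.3% of all genes in either direction, 32.2% higher and 40.1% lower. The groups did not overlap in 8 members, against 72.3% of all genes. THBD, SERPINB2 and TFPI2 passed the filter only through U87 libraries, so they had to be higher in U87MG. They are 3 of the 7 called higher and of the 8 without overlap, and nothing is read from these counts. The PLAUR log2 fold change was 2.57 (SE 0.14, adjusted p = 5.54e-09), that of TFPI 1.74 (SE 0.14, adjusted p = 3.22e-07) and that of PLAT -3.05 (SE 0.12, adjusted p = 2.89e-10). PLAU was higher in U87MG by 1.86 (SE 0.53, adjusted p = 0.00783), and by 1.16 without U251MG replicate 2. SERPINE2 was higher by 1.14 (SE 0.35, adjusted p = 0.0114), and by 0.57 without that library. F3 did not pass (-0.73, SE 0.58, adjusted p = 0.275). It passed without U251MG replicate 2 (-1.35), without U87MG replicate 3 (-1.45) and without both (-2.07, SE 0.16, adjusted p = 8.05e-07). TFPI2, SERPINB2 and THBD were listed at 0 in all U251MG libraries, so no fold is given.

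The resistant lines can be set side by side, without a test. SERPINE2 averaged 162 ± 1.82 FPKM in U87TR and 163.6 ± 4.4 FPKM in U251TR (SD, n = 3 each), and its libraries overlapped. Each of the other 8 members was without overlap, but the share of all genes without overlap was not taken for this pair. TFPI2, THBD and SERPINB2 passed the filter only through U87 libraries, and nothing is read from this count. PLAT was lower in U87TR, and F3, TFPI, TFPI2, THBD, PLAU, PLAUR and SERPINB2 were higher there. PLAU averaged 123.7 ± 3.56 FPKM in U87TR and 100.5 ± 10.4 FPKM in U251TR, and F3 16.1 ± 2.52 FPKM in U87TR and 3.31 ± 0.422 FPKM in U251TR (SD, n = 3 each). TFPI averaged 62.9 ± 4.7 FPKM in U87TR and 22.4 ± 1.15 FPKM in U251TR, and PLAUR 131.3 ± 9.43 FPKM in U87TR and 61.6 ± 3.92 FPKM in U251TR (SD, n = 3 each).

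The genes of 16 transcription factors known to act at promoters of these genes were listed, and 15 were tested. In U251TR 3 rose and 3 fell (median -0.07 log2 units), and in U87TR 3 rose and 4 fell (median 0.09). JUN, an AP-1 subunit, fell in both, by 0.58 log2 units in U251TR (SE 0.11, adjusted p = 0.000916) and by 0.51 in U87TR (SE 0.11, adjusted p = 0.0053). EGR1, a zinc finger factor induced by growth signals, rose in both, by log2 fold changes of 1.24 in U251TR (adjusted p = 0.0001) and 1.00 in U87TR (adjusted p = 0.00141). ETS1 fell by 1.52 in U251TR (adjusted p = 2.97e-05) and RELA, the NF-kB subunit p65, by 1.10 in U87TR (adjusted p = 1.18e-06). JUNB rose in U251TR (1.08), FOSL2 fell there (-0.63) and rose in U87TR (0.42), and KLF4 rose in U87TR (1.29). FOSL1, the Fos family member with the highest level in U87MG, was at 200.22, 237.08 and 250.77 FPKM in U87TR, against 406.93, 418.36 and 307.78 FPKM in U87MG. It did not pass there (log2 fold change -0.71, SE 0.28, adjusted p = 0.0797). In U251MG replicate 2 it was at 27.67 FPKM, against 70.48 and 67.75 FPKM in replicates 1 and 3. Its U251TR value (-0.64, adjusted p = 0.0728) passed without that replicate (-1.07). Whether these factors have a part in the members' changes was not tested.

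The genes of plasminogen, its receptors and the clearance receptors surround the members in the pathway. Of 14 listed genes 11 were tested: 5 rose and 2 fell in U251TR (median log2 fold change 0.18), and 3 rose and none fell in U87TR (median 0.18). PLG, the plasminogen gene itself, was at most 0.2 FPKM in any library. LRP1, the endocytic receptor that clears activator and inhibitor complexes, averaged 36.6 ± 4.22 FPKM in U251TR and 6.98 ± 1.2 in U251MG (SD, n = 3 each), a log2 fold change of 2.24 (adjusted p = 6.42e-07). PLGRKT, a plasminogen receptor, rose by 1.79 (adjusted p = 3.72e-08) and MRC2, which codes for a collagen receptor associated with the urokinase receptor, by 1.63 (adjusted p = 3.92e-07). S100A10, which with annexin A2 binds plasminogen and PLAT protein at the cell surface, changed in opposite directions. It was at 149.64, 167.67 and 168.56 FPKM in U251TR, against 344.52, 351.21 and 353.34 FPKM in U251MG. In U87TR it was at 1464.13, 1374.41 and 1512.19 FPKM, against 530.92, 566.72 and 947.35 FPKM in U87MG. The log2 fold changes were -1.11 (adjusted p = 0.000147) in U251TR and 1.14 (adjusted p = 0.000346) in U87TR. ANXA2 rose in U87TR by 0.60 (adjusted p = 0.000262), and CLEC3B, the gene of the plasminogen-binding protein tetranectin, by 3.35 (SE 0.38, adjusted p = 5.67e-05), with 34.21, 22.96 and 23.85 FPKM in U87TR, against 1.02, 0.66 and 4.92 FPKM in U87MG.

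Among 11 other inhibitor genes 7 were tested, of which 4 rose and none fell in U251TR (median log2 fold change 0.51) and 2 rose and 1 fell in U87TR (median 0.09). A2M, 1 of the 4 that rose, passed the filter only through the 3 U251TR libraries, so it had to be higher there. SERPINB8 fell in U87TR by 1.15 (adjusted p = 0.00049). Its rise in U251TR (0.52, adjusted p = 0.026) was lost without U251TR replicate 1 or U251MG replicate 2, and that of SERPINA5 (0.51, adjusted p = 0.0157) without any of 3 libraries. SERPINB6 rose in U87TR by 0.26 (adjusted p = 0.0496), a call lost without any 1 of the 6 libraries.

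**Figure D4:**
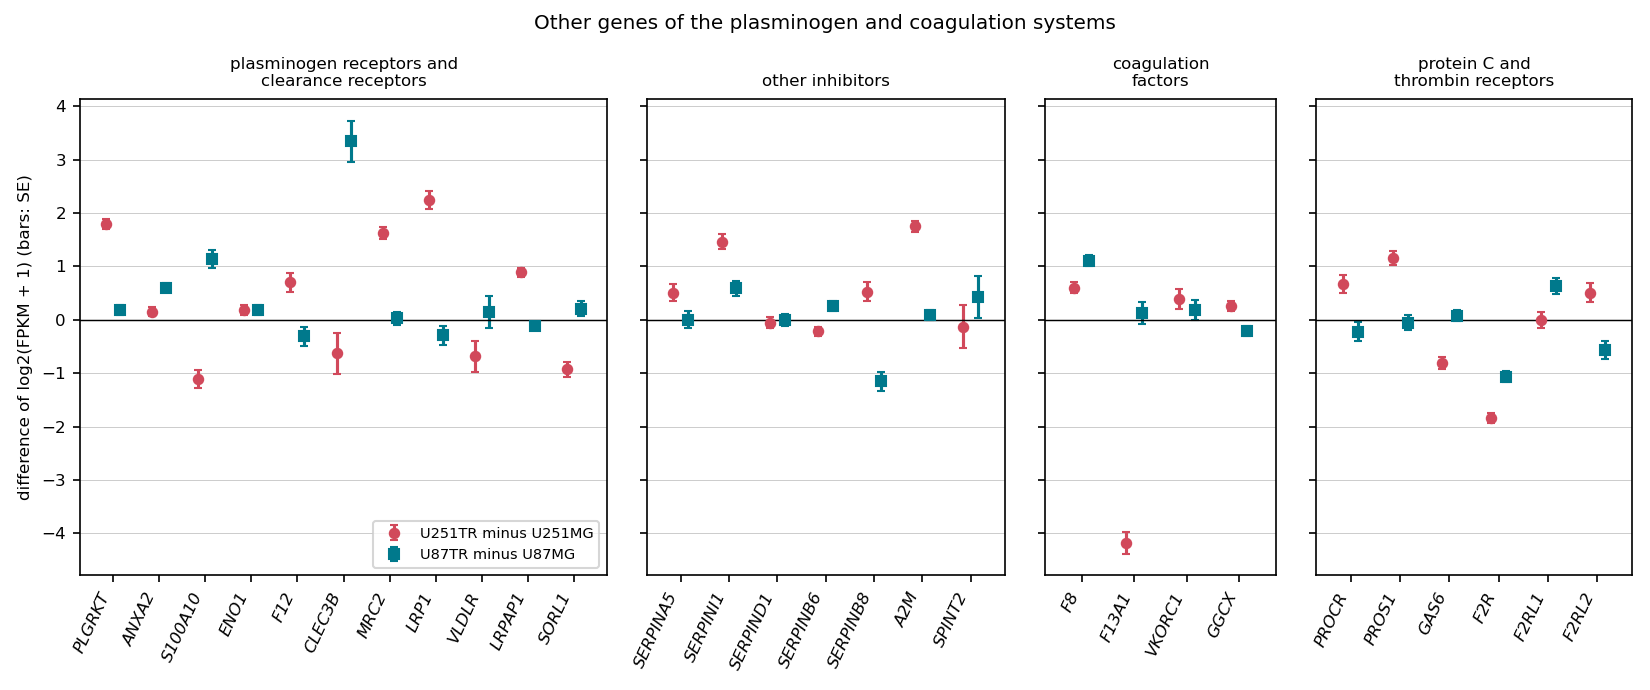
Fitted differences of log2(FPKM + 1), resistant minus parental, with standard errors, for the tested genes of 4 lists around the members; circles are U251TR minus U251MG and squares are U87TR minus U87MG. LRP1, PLGRKT and MRC2 have the highest U251TR values of their list, S100A10 has opposite signs, and F13A1 has the lowest value, in U251TR. F13A1 passed the filter only through its U251MG libraries, where it was high.

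Most genes of circulating coagulation factors were too low to test: 13 of 15 listed were in the table and 4 were tested, of which 2 rose and 1 fell in U251TR and 1 rose in U87TR. The median log2 fold changes were 0.33 and 0.16. F13A1, the catalytic subunit of the fibrin cross-linking factor XIII, was at 0.18, 0.34 and 0.24 FPKM in U251TR, against 28.31, 14.04 and 25.38 FPKM in U251MG (log2 fold change -4.18, SE 0.20, adjusted p = 1.27e-08). F13A1, the 1 that fell, passed the filter only through the 3 U251MG libraries, where it was high, so it had to differ here. GGCX, the vitamin K-dependent carboxylase gene, was 0.27 higher in U251TR (adjusted p = 0.0334), a call lost without any of 4 libraries. Of 8 protein C and thrombin receptor genes 6 were tested: 3 rose and 2 fell in U251TR (median 0.25), and 1 rose and 2 fell in U87TR (median -0.14). F2R, which codes for the thrombin receptor PAR1, fell in both. It was at 12.08, 13.02 and 12.23 FPKM in U251TR, against 45.01, 50.08 and 46.26 FPKM in U251MG, and at 7.71, 8.26 and 7.58 FPKM in U87TR, against 19.17, 18.93 and 14.79 FPKM in U87MG. The log2 fold changes were -1.84 (adjusted p = 3.03e-08) in U251TR and -1.07 (adjusted p = 8.87e-06) in U87TR. PROS1 (1.16) and PROCR (0.67), of the protein C pathway, rose in U251TR and GAS6 fell (-0.81). F2RL1, the gene of the protease-activated receptor PAR2, rose in U87TR (0.63, adjusted p = 0.0092).

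SERPINB2 lies in a cluster of serpin genes on chromosome 18, and its neighbours were lower in U87TR too. Of the 24 protein-coding genes of the table within 12 places of it, 16 were tested. Of these 16, 15 were lower in U87TR, against 17.2% of all genes and 43.9% of tested genes on the rest of chromosome 18. This window was set after its values were seen. The exception was CCDC102B (log2 fold change -0.07, adjusted p = 0.754). The count was 15 whichever of the 6 U87 libraries was left out. For the 10 neighbours at 5 FPKM or more in U87MG, the median ratio of the U87TR mean to the U87MG mean was 0.453. SERPINB7, next to SERPINB2, was at 2.07, 2.49 and 2.52 FPKM in U87TR, against 40.83, 40.34 and 31.06 FPKM in U87MG (log2 fold change -3.51, SE 0.12, adjusted p = 1.62e-09). KDSR, a sphingolipid synthesis gene 7 places away, was at 19.5, 18.31 and 20.38 FPKM in U87TR, against 78.46, 73.66 and 50.36 FPKM in U87MG (-1.72, SE 0.17, adjusted p = 1.64e-05). The falls of the other 13 lay between -0.71 for SOCS6 and -1.62 for DSEL. On the log2(FPKM + 1) scale SERPINB2 and SERPINB7 thus fell further than the other tested genes of the window. That scale understates changes of low genes: DOK6 was listed at 0 in all U87TR libraries, against 0.68, 0.71 and 2.1 FPKM in U87MG. In U251TR 5 of the 16 rose and 2 fell, against 33.6% and 19.6% of all genes. In U87MG against U251MG 14 of the 16 were higher and 1 was lower, against 32.2% and 40.1% of all genes. SERPINB7, HMSD and CDH7, which are among the 14, passed the filter only through U87 libraries, so they had to be higher in U87MG. On the rest of chromosome 18, 62.4% of tested genes were higher in U87MG and 21% were lower. No DNA copy number was measured, and the part of gene position in the SERPINB2 change was not tested.

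**Figure D5:**
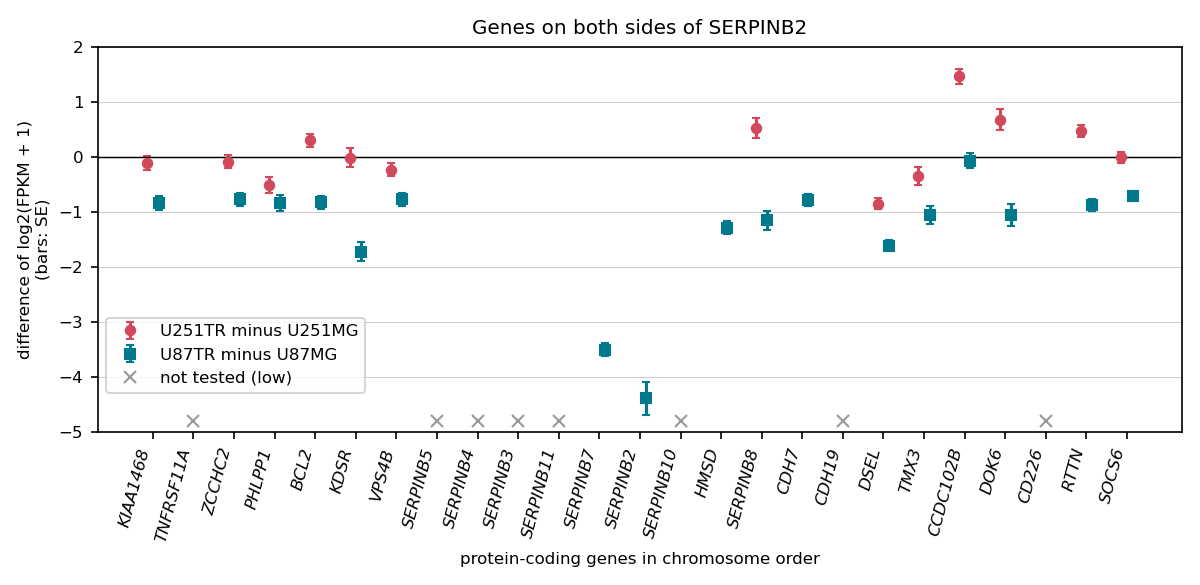
Fitted differences of log2(FPKM + 1) with standard errors for SERPINB2 and the 12 protein-coding genes of the table on each side, in chromosome order; circles are U251TR minus U251MG, squares are U87TR minus U87MG, crosses are genes too low to test, and no point is drawn where both group means were under 0.1 FPKM. All squares but that of CCDC102B lie clearly below 0, with SERPINB2 and SERPINB7 the lowest.

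Genes with profiles most like a member were sought by the root mean square difference of log2(FPKM + 1), each centred on its own mean over the 12 libraries, among 9168 genes at 10 FPKM or more in a group. This is a description, since the 12 libraries form 4 groups. PLAUR was matched most closely by MLTK and SEC11C (0.17 and 0.18 log2 units) and PLAT by PPP1CB and SLC8A1 (0.15 and 0.20). SERPINB2 was matched by its neighbour SERPINB7 (0.42) and by IL36B (0.60), and PLAU by KDSR (0.49) and STC2 (0.56). F3 was matched by NRG1 (0.59) and SYTL2 (0.70), which averaged 2.99 and 6.49 FPKM in U251TR, against 39.2 and 25.7 FPKM in U251MG. TFPI2 was matched by RN7SL3 (0.62), a copy of the 7SL RNA whose reads can be shared with near-identical copies, and by COL6A3 (0.75).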

How the data were processed

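RNA of 12 cell line libraries was sequenced in 150 bp pairs, per the labels. STAR 2.5.2b, RSEM 1.2.31 and build hg19 stand in the submitters' processing notes, but hg38 in the design text. The authors deposited 1 table by gene symbol, taken to hold FPKM although no header states it: value times mean transcript length sums to 0.911 to 0.976 of what FPKM would give. Without counts, no counting error can be given. The 27 symbols turned into dates were left out.

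A filter of 1 FPKM in at least 3 libraries left 15449 genes, which were fitted as log2(FPKM + 1) in limma 3.58.1 (R 4.3.3), with 1 mean per line and trended, robust moderation. Fold changes and SE are on that scale, which understates changes of low genes. Tests are two-sided, adjusted by Benjamini-Hochberg over all genes tested, at a threshold of 0.05. The fit was tested on simulated data.

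The members and gene lists were chosen with earlier results of these data known. Named were all members, up to 4 called genes per list and comparison with the largest changes at 10 FPKM or more in the higher group, and the 2 genes most like each member whose group means span 2 log2 units. FOSL1, A2M, ERG, LAPTM5 and the SERPINB2 neighbours were named after their values were seen. Neighbours are from RefSeq GRCh38.p14, where 12739 tested genes matched. Alternatives were other pseudocounts, filters and scalings, a replicate block, fits on the compared groups alone and each library left out. Leaving out U251MG replicate 2 with U87MG replicate 3 was added after seeing the data. Protein comparisons were not made here, and 1 gene is not reported here.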

Additional observations from a re-analysis of the deposited data

Results flagged for a closer look

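For 6 of the 9 members the change in the resistant line differed between the U87 and the U251 lines. This is by the limma test of the difference itself (U87 change minus U251 change, adjusted p under 0.05 over all genes). Of all 15449 genes tested, 47.6% passed the same test. Such a call is thus common, and nothing particular to these genes is read from the count. With 1 resistant line per parent, and U87TR alone in its code block, parental background, single line and code block cannot be told apart. The difference was 2.72 for F3, 2.22 for PLAT, -1.49 for PLAUR, -1.66 for TFPI2, -1.34 for THBD and -4.39 for SERPINB2, on the log2 scale. For F3, PLAT, PLAUR, TFPI2 and SERPINB2 it also passed with any single library left out (highest adjusted p = 0.0494, for F3). THBD was tested only because its 3 U87MG libraries passed the filter, so its call is no support for a difference. SERPINB2 would not have passed the filter without U87MG libraries, where it was high, so its call is no support either. TFPI2, THBD and SERPINB2 were at or near 0 in both U251 groups, so that they could fall only in U87TR.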

How the results depend on the processing

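Under every alternative run, the number of members that passed stayed within 1.5 times its main value in each comparison: 4 to 5 in U251TR against U251MG, 4 to 6 in U87TR against U87MG, 5 to 8 for the difference and 7 to 9 between the parents. At a filter of 5 FPKM THBD was not tested, so it has no value there. The direction of a member turned once: with 1 library left out F3 in U87TR ranged from -1.001 to 0.17, the last without U87MG replicate 3. Beside the calls lost in U87TR without single libraries given above, TFPI was lost there with quantile normalization (adjusted p = 0.0579) and in the fit on the compared groups alone (0.0532), and SERPINE2 was lost between the parents in the fit on the compared groups alone (0.059); the cause was not tested. Rescaling moved the median log2 fold change of all genes by up to 0.18, for the difference with quantile normalization, and turned no member. Same-numbered libraries did not deviate together (correlations from -0.0579 to 0.116), so a number does not pair them. With the number as a replicate block 4, 6, 6 and 8 members passed in the 4 comparisons, as without it. Genes near 0 FPKM are limited by the rounding to 2 decimals, and no depth is given.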

Other observations

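On chromosome 18 as a whole, 174 genes were tested and matched, and 48.9% were lower in U87TR, against 19% of all matched genes. Leaving out SERPINB2 and its 16 tested neighbours, 43.9% of 157 genes were lower, with a median ratio of the U87TR to the U87MG mean of 0.807 for those at 5 FPKM or more in U87MG. Chromosome 11 came next, with 41.4% of 712 genes lower. In U251TR 22.4% of the chromosome 18 genes were lower, against 20.3% of all matched genes.

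Genes within 3 places of other members were also read, first in U251TR, where SERPINE2 and PLAUR rose. Near SERPINE2, AP1S3 (log2 fold change 1.21), WDFY1 (0.80) and DOCK10 (1.32) rose, while MRPL44 (0.24) and CUL3 (-0.12) did not pass. Near PLAUR, KCNN4 (1.68) rose, CADM4 (-0.52) and SMG9 (-0.24) fell and ZNF428 (-0.20) did not pass. Of all genes tested and matched, 35.7% were higher in U251TR and 20.3% lower. Of those on chromosome 2, which holds SERPINE2, 50.6% were higher and 10.9% lower. On chromosome 19, which holds PLAUR, 21.7% were higher and 32.5% lower. GNG11, a G protein subunit gene near TFPI2, was also higher in the U87 lines, with means of 66.6 FPKM in U87TR and 107 FPKM in U87MG (log2 fold change -0.69), and 11.2 FPKM in U251TR and 4.15 FPKM in U251MG, while CALCR and GNGT1, which flank TFPI2, averaged at most 0.0433 FPKM in any group. NDST2, near PLAU, averaged 5.74 FPKM in U87TR and 13.5 FPKM in U87MG (log2 fold change -1.12), while CAMK2G and VCL, on either side of PLAU, had log2 fold changes of -0.16 and 0.20 there. These neighbours were chosen after their values were seen.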
